A study of Mus musculus with 20 samples.

Results

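The autotaxin and lysophosphatidic acid (LPA) receptor genes considered here were 8 of the 35226 genes counted in subcutaneous LLC1 tumors. They comprised *Enpp2*, which encodes autotaxin, the LPA receptor genes *Lpar1*, *Lpar2*, *Lpar3*, *Lpar4* and *Lpar6*, and the lipid phosphate phosphatase genes *Plpp1* and *Plpp3*. *Enpp2* was chosen by its measured interaction of cisplatin and KW6002 in these same tumors, so all its values are a description and no test is given for it. The other 7 genes were listed by name because they receive or degrade the lipid that autotaxin makes. All 8 were found in the count table.

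LLC1 is an established Lewis lung carcinoma line of the mouse. The cells were grown with Matrigel under the skin of the right flank of male C57Bl6/J mice aged 8 to 10 weeks, so every group carried the same tumor, and doses and schedule are not reported here. The 4 groups received vehicle, KW6002 (the adenosine receptor blocker istradefylline, a drug for Parkinson disease), cisplatin, or cisplatin with KW6002 (cotreatment), with 5 tumors each and 1 library per tumor. Each library came from a whole tumor, in which cancer cells and host cells were mixed, and totals ranged from 28.4 to 41 M counted reads. The keratin messages *Krt8* and *Krt18* were present in every tumor, at 95.2 to 142 and 224 to 289 CPM in tumors given no cisplatin and 165 to 215 and 285 to 378 CPM in tumors given it, whereas *Epcam*, an epithelial adhesion gene, had a median of 0 CPM.

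Autotaxin is a secreted lysophospholipase D of the ENPP family that cleaves the choline head group from lysophosphatidylcholine and so produces LPA outside the cell. LPA binds G protein-coupled receptors of separate families, the EDG-type receptors encoded by *Lpar1*, *Lpar2* and *Lpar3* and the P2Y-like receptors encoded by *Lpar4*, *Lpar5* and *Lpar6*, which signal through phospholipase C and inhibitory or stimulatory G proteins. Lipid phosphate phosphatases at the plasma membrane remove the phosphate from LPA and end its signal. The axis is known in wound repair, fibrosis, vascular development and tumors.

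Sequences are shown for the 2 LPA receptor genes called against vehicle after cotreatment, *Lpar1* higher and *Lpar4*, at few counts, lower. Each is the stretch of 250 bases before a RefSeq transcription start that lies outside annotated exons, on GRCm38.p6 and read 5′ to 3′ on the strand of the gene. The *Lpar1* stretch, chr4:58499404-58499653 on the minus strand, precedes an internal start of this gene and is the only one listed for it without exon bases. The *Lpar4* stretch, chrX:106920375-106920624 on the plus strand, precedes the single listed start of *Lpar4*. Capitals mark matches on either strand to GGGCGG, known as the GC box, to the letters CCAAT, or to TATAAA, a form of the TATA element.
Lpar1: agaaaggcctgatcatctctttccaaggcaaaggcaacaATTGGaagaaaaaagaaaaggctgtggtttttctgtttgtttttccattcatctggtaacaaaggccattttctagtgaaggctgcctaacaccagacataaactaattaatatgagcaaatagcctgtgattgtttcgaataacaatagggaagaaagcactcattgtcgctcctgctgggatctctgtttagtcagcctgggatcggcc
Lpar4: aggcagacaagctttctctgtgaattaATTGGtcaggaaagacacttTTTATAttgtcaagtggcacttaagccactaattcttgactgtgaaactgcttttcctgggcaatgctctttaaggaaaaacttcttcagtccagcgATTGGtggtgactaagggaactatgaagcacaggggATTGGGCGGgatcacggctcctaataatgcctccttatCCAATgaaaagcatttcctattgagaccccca

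Of the 8 members, 6 had at least 1 entry among the 32851 RefSeq windows that run from 250 bases before to 50 bases after a start, with 8 windows in all, and *Enpp2* and *Plpp1* had none. GGGCGG was found in 35.7% of all windows and in 6 of these 8, belonging to *Lpar1*, *Lpar2*, *Lpar3*, *Lpar4* and *Plpp3*. CCAAT was found in 37.4% of windows and in 2 of these 8, 1 window of *Lpar1* and that of *Lpar4*. TATAAA was found in 13.6% of windows and in that of *Lpar4* alone among the members. The cyclic AMP response element TGACGTCA, found in 1.79% of windows, and TGACG, the shorter form contained in it, found in 20.8%, matched no window of a member on either strand. In the *Lpar4* stretch a CCAAT match and the GC box shared bases. These matches describe the letters only.

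Levels of different genes were compared as CPM per kb, that is, counts per M counted reads divided by the summed length of all annotated exons. Over the 20 tumors *Enpp2* was highest at 20.9 ± 4.07 CPM per kb, followed by *Plpp1* at 17.3 ± 2.68 and *Lpar1* at 9.88 ± 2.2 (SD, n = 20). *Lpar6* followed at 3.19 ± 0.486, *Lpar2* at 2.88 ± 0.296 and *Plpp3* at 2.53 ± 1.57 CPM per kb, and these 3 neighbors overlapped. *Lpar4* at 0.0948 ± 0.0451 and *Lpar3* at 0.0526 ± 0.0320 CPM per kb were the lowest. *Enpp2* was above *Plpp1* in 5 of 5 vehicle, 5 of 5 KW6002 and 4 of 5 cotreated tumors. In cisplatin tumors *Plpp1* was the higher of the pair in 3 of 5, an order that held only for this length: per kb of the longest transcript the cisplatin means were 31.3 CPM for *Enpp2* and 19.8 CPM for *Plpp1*. *Lpar1* ranked below *Plpp1* and above *Lpar6* and *Lpar2* in the mean of each group. The exon model matters for *Enpp2*, which has 9 annotated transcripts: with its longest transcript of 3095 bases in place of 5779 exonic bases, its level in vehicle was 39.9 instead of 21.4 CPM per kb.

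**Figure D1:**
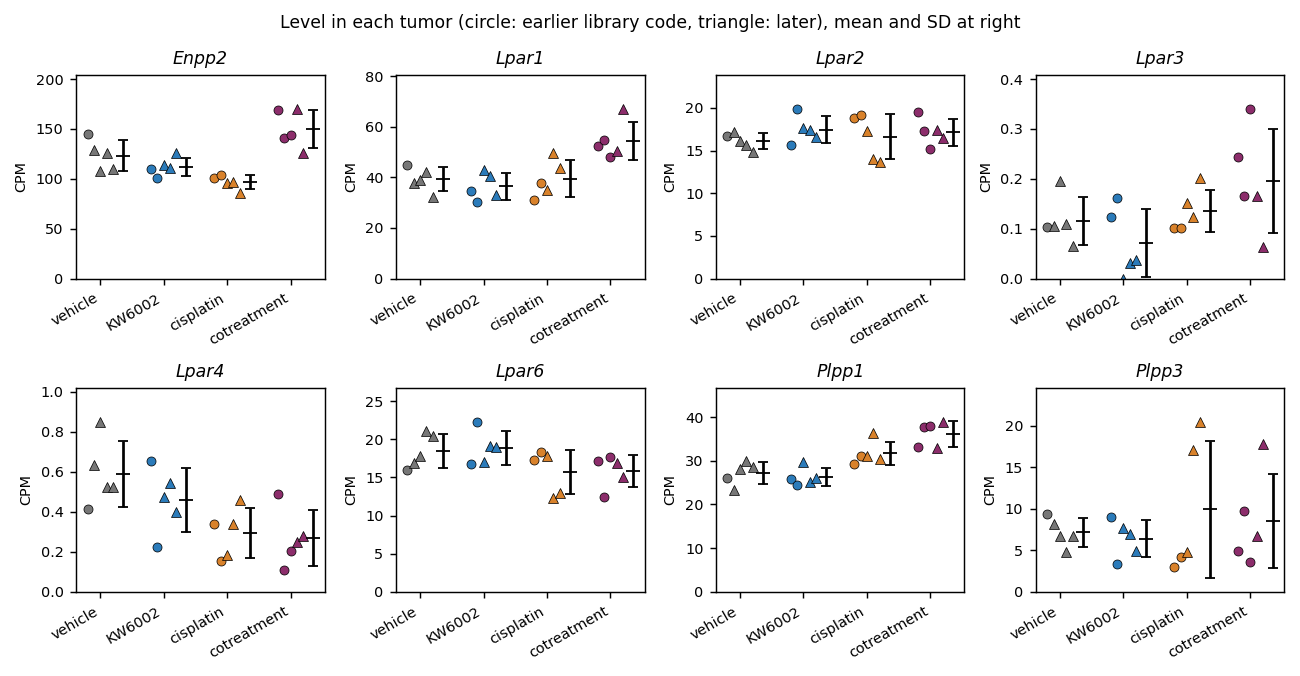
Level of each member (CPM, linear axis from 0) in the 20 tumors by group, with circles for earlier and triangles for later library codes and the group mean with its SD to the right of the points. The 5 cotreated tumors lie above all cisplatin tumors for *Enpp2* (126 to 171 and 86.1 to 104 CPM), while *Lpar2* overlaps between all 4 groups and *Lpar3* stays at or below 0.341 CPM.

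*Enpp2* (ENSMUSG00000022425, chr15:54838901-54952892, minus strand, protein coding) was measured at 145, 129, 107, 126 and 109.8 CPM in vehicle tumors, replicates 1 to 5. KW6002 tumors had 109.9, 101, 114, 111 and 126 CPM, which overlapped with vehicle. Cisplatin tumors had 101, 104, 95.8, 97.0 and 86.1 CPM, and all 5 lay below the lowest vehicle tumor. Cotreated tumors had 169, 141, 144, 171 and 126 CPM, which overlapped with the upper vehicle tumors and lay wholly above the cisplatin tumors. They also lay above the KW6002 tumors, but narrowly, with the lowest cotreated tumor at 126.03 CPM and the highest KW6002 tumor at 125.59 CPM. Group means were 123 ± 15.3 CPM for vehicle, 112 ± 8.98 CPM for KW6002, 96.8 ± 6.84 CPM for cisplatin and 150.1 ± 19.1 CPM for cotreatment (SD, n = 5).

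The fitted log2 fold changes of *Enpp2* were -0.14 (SE 0.0886) for KW6002 and -0.35 (SE 0.0888) for cisplatin against vehicle, and 0.28 (SE 0.0885) for cotreatment against vehicle. Between cotreatment and cisplatin the log2 fold change was 0.63 (SE 0.0888), which corresponds to a 1.55-fold higher level. Between cotreatment and KW6002 it was 0.42. The interaction, meaning how far the effect of KW6002 differed between tumors with and without cisplatin, was 0.77 (SE 0.125) and is the value for which the gene was chosen. Counts of *Enpp2* were 2990 to 6902 per tumor. The lncRNA gene *Gm26684* overlaps the first exons of *Enpp2* on the opposite strand and had 0 to 12 counts per tumor.

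The comparisons below share groups, for example the same vehicle tumors in 3 of them, so their values are set side by side and not compared as independent experiments. A member was called when its adjusted P value over all 16665 genes tested was under 0.05 and its log2 fold change reached 0.32 in size. *Lpar3* did not pass the filter on low counts and *Enpp2* was not tested, which left 6 members to test in each comparison. In the bulk RNA of a tumor, fewer cells of a type and less RNA per cell cannot be told apart.

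KW6002 alone was compared with vehicle, and 0 of the 6 members were called, as were 0% of all genes tested in edgeR. Unadjusted P values were under 0.05 for 0 of the 6 members and for 339 of the 16665 genes tested in edgeR. DESeq2 and limma voom also called 0 of the 6. The intervals bound the differences unequally. The 95% interval of the log2 fold change ran from -0.37 to 0.15 for *Lpar1*, from -0.09 to 0.32 for *Lpar2*, from -0.23 to 0.28 for *Lpar6* and from -0.21 to 0.11 for *Plpp1*, but from -1.06 to 0.36 for *Lpar4* and from -1.26 to 0.94 for *Plpp3*.

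Cisplatin alone was compared with vehicle, and again 0 of the 6 members were called in edgeR, where 10.6% of all genes were (6.01% higher and 4.57% lower). Unadjusted P values were under 0.05 for 2 of the 6, *Lpar4* and *Plpp1*, and for 5143 of the 16665 genes tested in edgeR. DESeq2 called 0 of the 6 members and limma voom with sample weights called 1. After cotreatment 3 of the 6 members were called against vehicle, or 2 of 5 without *Lpar4*, which passed the filter mainly through the groups where it was high. Of all genes 23.5% were called, and among the members *Lpar1* and *Plpp1* were higher (13.1% of genes were called higher) and *Lpar4* was lower (10.4% lower). Against cisplatin alone, cotreatment gave a call for 1 of the 6, *Lpar1*, where 4% of all genes were called (2.29% higher and 1.71% lower). Against KW6002 alone it gave calls for 2 of the 6, both higher, where 23.3% of all genes were (12.6% higher and 10.7% lower). These were *Lpar1* and *Plpp1*. The interaction called 0 of the 6 in edgeR, DESeq2 and limma voom, where 0.066% of all genes were called (0.036% higher and 0.03% lower). At an unadjusted P value under 0.05 were 2 of the 6 members and 2034 of the 16665 genes tested in edgeR. With so few members these counts stand as descriptions.

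**Figure D2:**
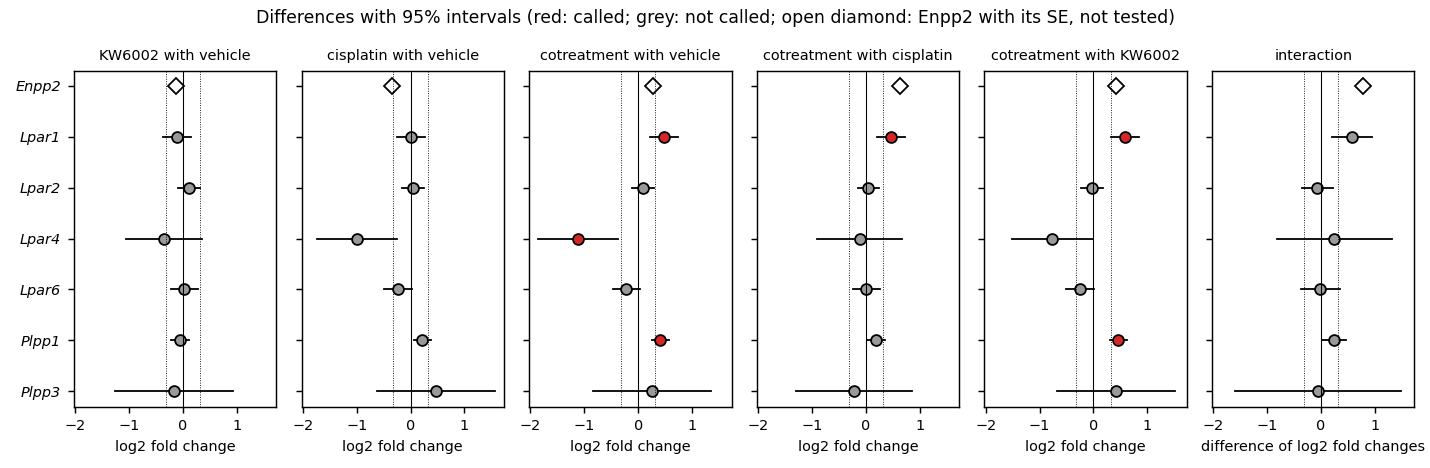
Log2 fold changes of 7 members in the 5 comparisons and, at the right, the interaction as a difference of log2 fold changes, with 95% intervals and dotted lines at the limit of 0.32 on either side of 0. Red points were called, grey points were not, and the open diamond is *Enpp2*, which was not tested and whose SE is no wider than the symbol; *Lpar1* is red in all 3 comparisons of cotreatment, and the intervals of *Lpar4* and *Plpp3* are the widest.

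*Lpar1* (ENSMUSG00000038668, chr4:58435255-58553898, minus strand, protein coding) encodes LPA1, the most widely expressed LPA receptor and the receptor best known in fibroblasts. Its levels in vehicle tumors were 45.0, 37.5, 39.1, 41.9 and 32.3 CPM, and in KW6002 tumors 34.8, 30.4, 43.0, 40.5 and 33.2 CPM. Cisplatin tumors had 31.0, 37.9, 35.0, 49.5 and 43.7 CPM, and cotreated tumors 52.4, 54.7, 47.8, 50.5 and 67.2 CPM. All cotreated tumors were thus above all vehicle and KW6002 tumors, and a single cisplatin tumor, replicate 4, reached into their range.

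*Lpar1* rose after cotreatment from a vehicle mean of 39.2 ± 4.77 CPM to 54.5 ± 7.51 CPM (SD, n = 5), which is 0.48 on the log2 scale (SE 0.124, adjusted P = 0.00509, edgeR). That call was lost with separate terms for the code run (0.41, adjusted P = 0.0645, edgeR) and in a test against the fold limit (adjusted P = 0.211, edgeR). *Lpar1* rose by 0.58 on the log2 scale against KW6002 (36.4 ± 5.22 CPM, adjusted P = 0.00108, edgeR) and by 0.47 against cisplatin (39.4 ± 7.30 CPM, adjusted P = 0.0283, edgeR). The last of these calls was lost, at log2 fold changes of 0.38 to 0.47, without cisplatin replicate 1 (0.39, adjusted P = 0.0554, edgeR), cisplatin replicate 3 (0.43, adjusted P = 0.0801), cotreatment replicate 2 (0.47, adjusted P = 0.0709) or cotreatment replicate 5 (0.38, adjusted P = 0.0711). Cisplatin alone left a log2 fold change of 0.01 against vehicle (95% interval, -0.25 to 0.27). The interaction of *Lpar1* was 0.58 (95% interval, 0.21 to 0.94) and was not called (adjusted P = 0.171, edgeR).

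*Lpar2* (ENSMUSG00000031861, chr8:69822429-69831102, plus strand, protein coding) encodes LPA2, a receptor often found in carcinoma cells. It was measured at 14.8 to 17.2 CPM in vehicle, 15.6 to 19.9 CPM in KW6002, 13.7 to 19.2 CPM in cisplatin and 15.2 to 19.5 CPM in cotreated tumors. All 4 groups overlapped, the log2 fold changes lay between -0.02 and 0.11, and none was called. After cotreatment the 95% interval of its log2 fold change against vehicle was -0.11 to 0.29.

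*Lpar6* (ENSMUSG00000033446, chr14:73237895-73243294, plus strand, protein coding) encodes LPA6, a receptor known for its role in hair growth. Its means were 18.4 ± 2.24 CPM in vehicle, 18.8 ± 2.23 in KW6002, 15.7 ± 2.86 after cisplatin and 15.9 ± 2.13 after cotreatment (SD, n = 5), and the ranges overlapped. The log2 fold changes of -0.23 for cisplatin and -0.22 for cotreatment were not called (adjusted P = 0.213 and 0.177, edgeR). In tumors with later library codes alone the value for cisplatin was -0.39 (adjusted P = 0.0468, edgeR). *Lpar6* lies within *Rb1*, a gene on the opposite strand whose exons overlap it, and the strand option of the counting is not given in the sources used here. *Rb1* rose after cotreatment against vehicle by 0.46 on the log2 scale (adjusted P = 0.0172, edgeR), and whether reads of *Rb1* entered the counts of *Lpar6* was not tested.

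*Lpar4* (ENSMUSG00000049929, chrX:106920625-106933900, plus strand, protein coding) encodes a P2Y-like LPA receptor known in vascular development. It had 12, 18, 26, 19 and 16 counts in vehicle tumors and 21, 7, 15, 17 and 11 in KW6002 tumors. Cisplatin tumors had 10, 6, 6, 11 and 16 counts, and cotreated tumors 20, 4, 6, 9 and 9. All groups overlapped, and cotreatment replicate 1 stood above the other 4 cotreated tumors.

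For *Lpar4* the fitted log2 fold change of cotreatment against vehicle was -1.11 (SE 0.357, adjusted P = 0.0194, edgeR), from 0.588 ± 0.165 to 0.267 ± 0.140 CPM (SD, n = 5). For cisplatin alone the log2 fold change was -1.0 (95% interval, -1.74 to -0.26, adjusted P = 0.0588, edgeR) with a mean of 0.294 ± 0.126 CPM, and between both cisplatin arms it was -0.11 (95% interval, -0.90 to 0.68). The filter required 0.317 CPM in 5 tumors, a level reached by 5 vehicle, 4 KW6002, 3 cisplatin and 1 cotreated tumors, so *Lpar4* was tested because of the groups in which it was high, and the value is given as a description of low counts. Its call against vehicle was lost without vehicle replicate 3 (log2 fold change -0.93, adjusted P = 0.0639, edgeR) or cotreatment replicate 2 (-0.90, adjusted P = 0.0618, edgeR), and with later codes only (-1.23, adjusted P = 0.0583, edgeR), separate terms for the code run (-0.94, adjusted P = 0.185, edgeR) or a test against the fold limit (adjusted P = 0.0850, edgeR).

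Endothelial markers, like *Lpar4*, had lower group means in tumors given cisplatin than in tumors given none. Between cisplatin and cotreatment they differed: the mean endothelial sum was 88.9 and 101 CPM, and the mean of *Lpar4* 0.294 and 0.267 CPM. The sum of 8 endothelial genes (*Pecam1*, *Cdh5*, *Kdr*, *Tek*, *Tie1*, *Emcn*, *Cldn5* and *Vwf*) was 155 to 230.1 CPM in vehicle, 133 to 218 CPM in KW6002, 77.0 to 105 CPM in cisplatin and 83.8 to 125 CPM in cotreated tumors. None of the 8 was at 0 in all tumors. Against vehicle, 8 of 8 were called lower after cisplatin and 6 of 8 after cotreatment, where 4.57% and 10.4% of all genes were called lower. Their part in the change of *Lpar4* was not tested.

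*Lpar3* (ENSMUSG00000036832, chr3:146220963-146286186, plus strand, protein coding), the third EDG-type receptor gene, had 0 to 10 counts per tumor. Its group means were 0.116 CPM in vehicle, 0.0707 in KW6002, 0.136 in cisplatin and 0.196 in cotreated tumors. With so few counts it did not pass the filter, and no difference between groups was tested. *Lpar5*, the remaining LPA receptor gene, was not a member and is named after its values were seen; it had 9 to 34 counts per tumor and was called in no comparison.

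The receptor messages were also expressed as shares of their summed CPM per kb. *Lpar1* made up 58.8 ± 3.52% of the sum in vehicle, 56.1 ± 5.13% in KW6002, 60.7 ± 7.86% after cisplatin and 67.7 ± 3.99% after cotreatment (SD, n = 5). *Lpar6* made up 22.2%, 23.2%, 19.5% and 15.8%, and *Lpar2* 17.8%, 19.8%, 19% and 15.8%, in the same order. *Lpar4* reached at most 1.30% and *Lpar3* at most 0.804% of the sum in any tumor. The sum itself was 14.0 to 16.5 CPM per kb in vehicle, 14.1 to 16.3 in KW6002, 13.8 to 16.3 in cisplatin and 17.2 to 21.4 in cotreated tumors, so the cotreated tumors held more receptor message than every other tumor. Within the cisplatin group, replicates 4 and 5 had *Lpar1* shares of 70.6% and 67.4%, against 52.5% to 56.7% in the other 3. Cotreatment replicate 5 had the most *Lpar1* of its group, at 67.2 CPM. It and these 2 tumors were also the 3 tumors with the highest *Col1a1*, at 737, 553 and 282 CPM for cisplatin replicates 4 and 5 and cotreatment replicate 5. *Col1a2* was highest in them as well. *Lum* and *Pdgfra* were not: *Lum* was 523, 449 and 509 CPM, in a range of 449 to 1053 CPM over all tumors. *Pdgfra* was 205, 182 and 242 CPM, in a range of 182 to 306 CPM. The part of fibroblasts in the values of *Lpar1* was not tested.

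**Figure D3:**
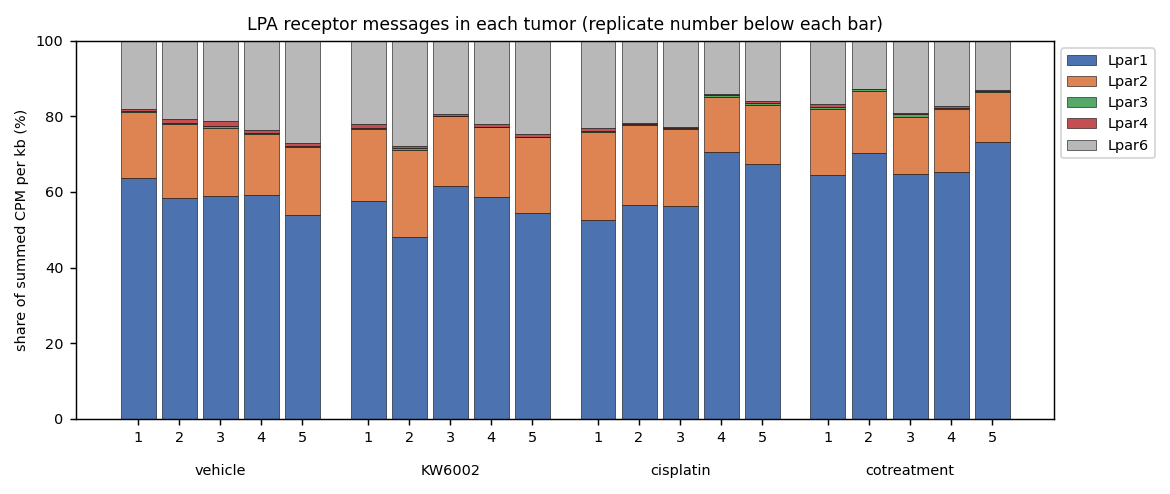
Share of each LPA receptor gene in the summed receptor level (percent of CPM per kb), with 1 bar per tumor and the replicate number under it. *Lpar1* takes 64.4% to 73.3% of the sum in cotreated tumors and 53.8% to 63.7% in vehicle tumors, and cisplatin replicates 4 and 5 stand above the other cisplatin tumors.

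*Plpp1* (ENSMUSG00000021759, chr13:112800792-112867894, plus strand, protein coding) encodes LPP1, a membrane phosphatase that degrades LPA and related lipid phosphates. Vehicle tumors had 26.1, 23.2, 28.1, 29.9 and 28.6 CPM, and KW6002 tumors 25.9, 24.4, 29.7, 25.2 and 26.0 CPM. Cisplatin tumors had 29.3, 31.2, 31.1, 36.3 and 30.5 CPM, and cotreated tumors 33.2, 37.7, 38.0, 32.8 and 38.9 CPM. Every cotreated tumor was above every tumor that had received no cisplatin, and the cisplatin tumors overlapped with both.

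*Plpp1* rose after cotreatment against vehicle, from 27.2 ± 2.60 to 36.1 ± 2.89 CPM (SD, n = 5), with a log2 fold change of 0.41 (SE 0.0774, adjusted P = 0.000351, edgeR). It also rose by 0.46 on the log2 scale against KW6002 (26.2 ± 2.02 CPM, adjusted P = 0.000117, edgeR). Cisplatin alone gave 31.7 ± 2.67 CPM and a log2 fold change of 0.22 (95% interval, 0.06 to 0.38, adjusted P = 0.0560, edgeR), past neither threshold. The difference of 0.19 between cotreatment and cisplatin was not called (adjusted P = 0.144, edgeR), nor was the interaction of 0.24 (adjusted P = 0.375, edgeR). The sum of 5 epithelial carcinoma markers, mostly *Krt8* and *Krt18*, averaged 406 CPM in vehicle, 387 CPM in KW6002, 531 CPM after cisplatin and 512 CPM after cotreatment. Of the 4 markers tested, 1 was called higher than vehicle after cisplatin and 1 after cotreatment, where 6.01% and 13.1% of all genes were. Their part in the values of *Plpp1* and *Lpar1* was not tested. The last exons of *Plpp1* overlap those of *Mtrex* on the opposite strand. *Mtrex* was measured at 167 ± 12.0 CPM in vehicle and 139.98 ± 4.80 CPM in cotreated tumors, with a log2 fold change of -0.26 that was not called because it missed the fold limit.

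*Plpp3* (ENSMUSG00000028517, chr4:105157347-105232764, plus strand, protein coding) encodes LPP3, a phosphatase needed for vessel formation and known in endothelium and mesenchyme. Vehicle tumors had 9.36, 8.19, 6.76, 4.79 and 6.68 CPM, and KW6002 tumors 8.98, 3.39, 7.69, 6.95 and 4.92 CPM. Cisplatin tumors had 3.04, 4.22, 4.78, 17.1 and 20.5 CPM, and cotreated tumors 4.87, 9.73, 3.55, 6.77 and 17.8 CPM. Its coefficient of variation was 82.7% in cisplatin tumors and 66.5% in cotreated tumors, the highest of the 8 members in these groups, against 24.1% in vehicle and 35% in KW6002 tumors, where *Lpar3* and *Lpar4* varied more. None of its differences was called, and for cisplatin against vehicle the 95% interval of the log2 fold change ran from -0.62 to 1.56.

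The tumors with the highest *Plpp3* also had the highest *Col1a1*, a fibrillar collagen gene on the fibroblast marker list. *Col1a1* was 737 and 553 CPM in cisplatin replicates 4 and 5 and 282 CPM in cotreatment replicate 5, against 43.1 to 212 CPM in the other 17 tumors. The lowest level of both genes was in cisplatin replicate 1, at 43.1 CPM for *Col1a1*. *Col1a1* was singled out after its values were seen, and of the same list *Col1a2* was also highest in these 3 tumors, at 1002, 831 and 544 CPM. *Col3a1* was 10368, 8788 and 8875 CPM in them, in a range of 6398 to 10368 CPM over all tumors. *Lum* and *Pdgfra* were not high. *Lum*, a proteoglycan gene of fibroblasts, was 523, 449 and 509 CPM in these 3 tumors, near the low end of its range of 449 to 1053 CPM over all tumors, and *Pdgfra*, a growth factor receptor of fibroblasts, was 205, 182 and 242 CPM in a range of 182 to 306 CPM. The sum of the 8 fibroblast markers was 9877 to 12932 CPM in vehicle, 9991 to 11796 CPM in KW6002, 8612 to 14366 CPM in cisplatin and 10783 to 12279 CPM in cotreated tumors. None of the 8 was at 0 in any tumor. Of the 8, 3 were called lower than vehicle after cisplatin and 3 after cotreatment, where 4.57% and 10.4% of all genes were. The part of fibroblasts in the spread of *Plpp3* was not tested. All 3 tumors with high *Plpp3* had later library codes.

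**Figure D4:**
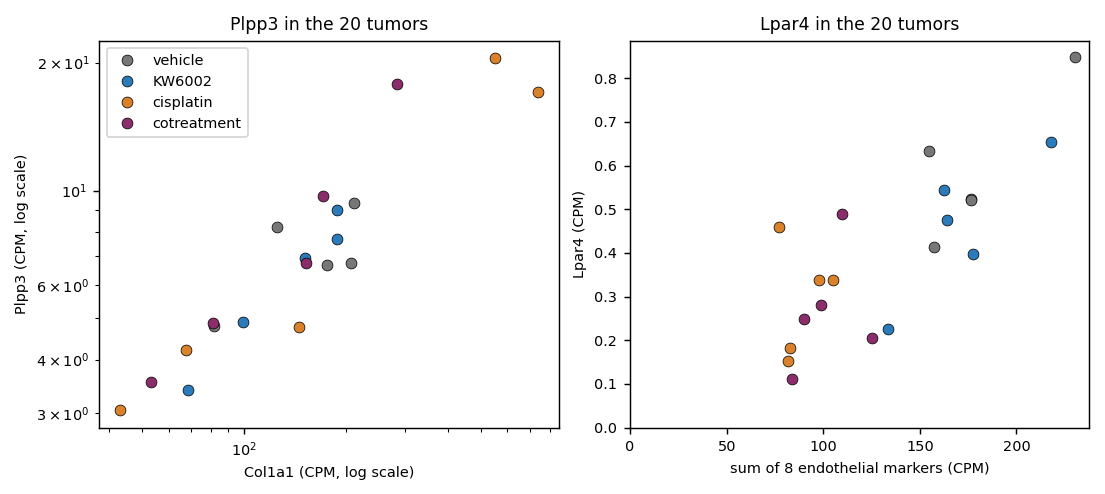
Left, *Plpp3* against *Col1a1* (CPM, both axes logarithmic), and right, *Lpar4* against the sum of 8 endothelial markers (CPM, linear axes from 0), with 1 point per tumor colored by group. The 3 tumors with *Plpp3* of 17.1 to 20.5 CPM are those with the highest *Col1a1*, and the tumors given cisplatin hold the low end of the endothelial sum, at 77.0 to 125 CPM.

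Library codes in the sample descriptions formed an earlier and a later run, which held 1 and 4 vehicle, 2 and 3 KW6002, 2 and 3 cisplatin, and 3 and 2 cotreated tumors. Whether a run was a batch is not given in the sources used here. Among earlier codes *Enpp2* averaged 103 CPM after cisplatin and 151 CPM after cotreatment, and among later codes 93.0 and 148 CPM. *Lpar1* averaged 34.5 and 51.7 CPM in these groups among earlier codes and 42.7 and 58.8 CPM among later codes. *Plpp1* averaged 30.3 and 36.3 CPM among earlier and 32.6 and 35.9 CPM among later codes. *Plpp3*, in contrast, averaged 3.63 and 6.05 CPM among earlier and 14.1 and 12.3 CPM among later codes. For cotreatment against cisplatin, *Lpar1* was called among earlier codes (log2 fold change 0.57, adjusted P = 0.0282, edgeR) and not among later codes (0.46, adjusted P = 0.309, edgeR), and the difference between runs was not tested. Earlier codes held a single vehicle tumor, so no comparison with vehicle was made within them.

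The genes whose pattern over the 20 tumors was most like that of *Enpp2* were found by the mean absolute difference of standardized log2 CPM, among 12739 genes with at least 50 counts on average. The nearest 5 were *Tgds* (0.541 SD), *Tbp* (0.542 SD), *Rab31* (0.543 SD), *Stk38l* (0.551 SD) and *Fgf10* (0.559 SD). *Fgf10*, a fibroblast growth factor of mesenchyme, was at 13.6 ± 2.30 CPM in vehicle, 14.4 ± 1.44 in KW6002, 12.2 ± 2.35 after cisplatin and 21.9 ± 3.32 after cotreatment (SD, n = 5). *Rab31*, a small GTPase of vesicle traffic, was at 489.6, 482, 469 and 582 CPM in the same order, and *Tgds*, the nearest gene, at 45.5, 43.2, 40.7 and 45.2 CPM, no higher after cotreatment than in vehicle. By rank correlation in place of this distance, 2 of these 5 stayed among the nearest, *Tgds* and *Stk38l*. *Lpar1* was the nearest member, at position 603, followed by *Lpar2* at 2934 and *Plpp1* at 3724.

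Other genes of the pathway were taken from 7 lists with 83 genes, of which 81 were in the table and 71 were tested. In KW6002 tumors 0 of the 71 were called in edgeR, and DESeq2 and limma voom also called 0. At an unadjusted P value under 0.05 were 1 of the 71 and 339 of the 16665 genes tested in edgeR. After cisplatin 9 of the 71 (12.7%) were called against vehicle, 3 higher and 6 lower, where 10.6% of all genes were. After cotreatment 18 of the 71 (25.4%) were called, 8 higher and 10 lower, where 23.5% were. Between cotreatment and cisplatin 5 of the 71 (7.04%) were called, 2 higher and 3 lower, where 4% were, and between cotreatment and KW6002 16 (22.5%), 5 higher and 11 lower, where 23.3% were. The interaction called 1 of the 71 (1.41%), where 0.066% of all genes were. The median log2 fold change of the 71 genes after cotreatment was -0.06 against -0.02 over all genes.

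Of these 49 calls, 13 held in every alternative run. These were *Plpp7* and *S1pr1* after cisplatin, *Gdpd1*, *Pld1*, *S1pr1*, *Sphk1*, *Acta2*, *Tagln* and *Srf* after cotreatment against vehicle, and *Gdpd1*, *Pld1*, *S1pr1* and *Plcb2* after cotreatment against KW6002. The other 36 were lost in at least 1 alternative, the test against the fold limit included, among them all 5 between cotreatment and cisplatin, each of which was lost within later and within earlier codes alone.

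Enzymes that make or consume LPA and its precursors included 4 genes called after cotreatment of the 17 tested, or 23.5%, the same share as over all genes (23.5%). *Gdpd1*, a lysophospholipase D of the glycerophosphodiesterase family, was at 9.07 ± 0.900 CPM in vehicle and 13.1 ± 1.42 CPM in cisplatin tumors, and it reached 19.1 ± 5.22 CPM in cotreated tumors (SD, n = 5). The fitted differences were 0.53 on the log2 scale after cisplatin (adjusted P = 0.0183, edgeR) and 1.08 after cotreatment (adjusted P = 1.43e-05, edgeR), and the difference of 0.55 between these arms was called (adjusted P = 0.0273, edgeR). This last call was lost without cisplatin replicates 1 or 3 or cotreatment replicates 2 or 5, at log2 fold changes down to 0.42 and adjusted P up to 0.0928 (edgeR), with only the groups compared (0.55, adjusted P = 0.101, edgeR), and within later codes (0.57, adjusted P = 0.281, edgeR) or earlier codes alone (0.62, adjusted P = 0.15, edgeR). The call after cisplatin was lost with separate terms for the code run (0.51, adjusted P = 0.151, edgeR). *Pld1*, a phospholipase D that makes phosphatidic acid, rose from 28.3 ± 1.64 to 49.6 ± 10.1 CPM after cotreatment, and by 0.52 on the log2 scale against cisplatin (adjusted P = 0.00516, edgeR), a call that held without any single tumor and was lost with only the groups compared (adjusted P = 0.0584, edgeR) and within earlier or later codes alone. *Gdpd3*, a relative of *Gdpd1*, rose by 0.49 after cotreatment (adjusted P = 0.00881, edgeR), a call lost with later codes only (0.54, adjusted P = 0.0996, edgeR) and with separate code run terms (0.39, adjusted P = 0.142, edgeR). *Agpat1*, which converts LPA into phosphatidic acid, fell by 0.38 (adjusted P = 0.000869, edgeR), or by 0.32, just under the limit, without vehicle replicate 3 and by 0.30 with later codes only (adjusted P = 0.0700, edgeR). *Liph*, a phospholipase that makes LPA from phosphatidic acid, rose against KW6002 alone, by 0.50 (adjusted P = 0.0483, edgeR), a call lost on leaving out any 1 of 16 of the 20 tumors. The median log2 fold change of the 17 genes after cotreatment was 0.16.

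Of 4 ENPP relatives of autotaxin tested, 2 were called after cisplatin and 1 after cotreatment, all lower than vehicle. Over all genes 10.6% and 23.5% were called, 4.57% and 10.4% lower, and with so few relatives these counts stand as descriptions. *Enpp3* fell by 0.55 and *Enpp4* by 0.43 on the log2 scale after cisplatin (adjusted P = 0.0115 and 0.0273, edgeR). *Enpp3*, an ectoenzyme that hydrolyzes nucleotides, also fell after cotreatment, by 0.44 (adjusted P = 0.0207, edgeR). The call of *Enpp3* after cotreatment was lost without vehicle replicates 1, 4 or 5 or cotreatment replicate 3, and that of *Enpp4* without vehicle replicates 1 or 2 or cisplatin replicates 1, 4 or 5. With later codes only *Enpp3* was at -0.41 after cisplatin (adjusted P = 0.135, edgeR) and -0.24 after cotreatment (adjusted P = 0.505, edgeR), neither of them called. The call of *Enpp4* was also lost with the replicate block (-0.42, adjusted P = 0.0538, edgeR), with later codes only (adjusted P = 0.194, edgeR), with separate code run terms (adjusted P = 0.0980, edgeR) and with voom weights (-0.32). *Enpp4* was at 5.33 ± 1.05 CPM in vehicle, 3.95 ± 0.321 after cisplatin and 4.86 ± 0.467 after cotreatment (SD, n = 5).

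Among 6 further phosphatases and related genes, 1 was called after cisplatin and 2 after cotreatment (10.6% and 23.5% of all genes). *Plpp7* rose by 0.97 after cisplatin (adjusted P = 0.00253, edgeR) and by 0.71 after cotreatment (adjusted P = 0.00887, edgeR), from 1.30 ± 0.151 to 2.54 ± 0.742 and 2.12 ± 0.415 CPM. *Plpp6*, a phosphatase of isoprenoid lipids, rose by 0.34 after cotreatment (adjusted P = 0.0140, edgeR), a call lost without vehicle replicate 1 or cotreatment replicate 1 and with later codes only (0.16, adjusted P = 0.430, edgeR).

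Of 6 receptors of related lipids tested, 1 was called after cisplatin and 3 after cotreatment, all lower. Over all genes 10.6% and 23.5% were called, 4.57% and 10.4% lower, and with so few receptors these counts stand as descriptions. *S1pr1*, a sphingosine 1-phosphate receptor typical of endothelium and lymphocytes, fell by 0.63 after cisplatin (adjusted P = 0.000590, edgeR) and by 0.65 after cotreatment (adjusted P = 0.000119, edgeR), from 23.9 ± 2.99 to 15.5 ± 1.30 and 15.2 ± 1.43 CPM. The endothelial markers given with *Lpar4* were lower in the same groups, and their part was not tested. *S1pr3* fell by 0.96 (adjusted P = 0.0334, edgeR) and *Gpr35*, an orphan receptor proposed to bind lysophosphatidic acids, by 0.71 (adjusted P = 0.00716, edgeR) after cotreatment, and the call of *S1pr3* was lost on leaving out any 1 of 7 of the 20 tumors. With later codes only both calls were lost, at -0.52 for *S1pr3* (adjusted P = 0.482, edgeR) and -0.46 for *Gpr35* (adjusted P = 0.0771, edgeR). *P2ry10*, a receptor of lymphocytes, fell against KW6002 alone, by 1.32 (adjusted P = 0.00972, edgeR). The sum of 4 B cell markers was 44.1 CPM in KW6002 replicate 1 and at most 1.49 CPM in the other 19 tumors. Without that tumor *P2ry10* fell by 1.01 (adjusted P = 0.0418, edgeR), and with earlier codes only it was not called (-1.28, adjusted P = 0.0636, edgeR).

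Enzymes and transporters of sphingosine 1-phosphate, which lipid phosphate phosphatases also degrade, gave 1 call of 7 after cisplatin and 2 of 7 (28.6%) after cotreatment, where 10.6% and 23.5% of all genes were called. *Sphk1*, the kinase that makes this lipid, rose from 6.60 ± 1.09 CPM in vehicle to 11 ± 3.29 CPM after cisplatin (adjusted P = 0.0173, edgeR) and 16.4 ± 3.47 CPM after cotreatment (adjusted P = 6.17e-05, edgeR). *Spns2*, its exporter, rose by 0.37 after cotreatment (adjusted P = 0.0195, edgeR). The call of *Sphk1* after cisplatin was lost without vehicle replicate 4 or cisplatin replicate 4, and that of *Spns2* without vehicle replicate 4 or cotreatment replicates 2 or 3. With separate code run terms neither was called (adjusted P = 0.194 and 0.0676, edgeR), and *Spns2* was at 0.25 with later codes only (adjusted P = 0.334, edgeR).

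G proteins and effectors of LPA receptors were called in 1 of 19 (5.26%) after cisplatin and in 2 of 19 (10.5%) after cotreatment, against 10.6% and 23.5% of all genes. *Gnai1*, an inhibitory G protein subunit, had fitted log2 fold changes of -1.77 after cisplatin (adjusted P = 0.00588, edgeR) and -1.37 after cotreatment (adjusted P = 0.0108, edgeR). Its levels were 0.440 to 2.43 CPM in vehicle, 0.215 to 0.345 CPM after cisplatin and 0.220 to 0.624 CPM after cotreatment, so that like *Lpar4* it passed the filter mainly through the groups where it was high. *Gnai1* was the single call of this list after cisplatin, and without it the count after cotreatment was 1 of 18. Without vehicle replicate 2 the log2 fold changes of *Gnai1* were -1.14 after cisplatin (adjusted P = 0.0237, edgeR) and -0.73 after cotreatment, which was not called (adjusted P = 0.0812, edgeR). Both calls of *Gnai1* were lost with separate code run terms (adjusted P = 0.0900 and 0.0960, edgeR), and that after cotreatment with later codes only (-1.11, adjusted P = 0.271, edgeR). *Rhob*, an inducible small GTPase, rose by 0.45 after cotreatment (adjusted P = 0.0245, edgeR), from 154 ± 35.3 to 211 ± 24.1 CPM, and that call was lost on leaving out any 1 of 5 of the 20 tumors and with later codes only (0.26, adjusted P = 0.522, edgeR). *Plcb2*, a phospholipase C of blood cells, fell by 0.49 against cisplatin (adjusted P = 0.0148, edgeR; lost without cisplatin replicate 3 or cotreatment replicate 2) and was the single pathway gene called for the interaction, at -0.88 (adjusted P = 0.0391, edgeR). That call was lost on leaving out any 1 of 14 of the 20 tumors, at adjusted P up to 0.109 (edgeR), with the replicate block (adjusted P = 0.0715, edgeR) and with later codes only (adjusted P = 0.533, edgeR). *Plcb3* fell by 0.34 against KW6002 alone (adjusted P = 0.00116, edgeR) and stayed under the limit without KW6002 replicate 2 or cotreatment replicates 2 or 5.

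The list for SRF and YAP held these regulators themselves as well as genes they drive. Of 12 tested, 2 (16.7%) were called after cisplatin and 4 (33.3%) after cotreatment, all lower. Over all genes 10.6% and 23.5% were called, 4.57% and 10.4% lower, and with so few genes these counts stand as descriptions. *Acta2*, smooth muscle actin, fell from 35.6 ± 9.23 CPM in vehicle to 21.4 ± 3.62 CPM after cisplatin (adjusted P = 0.00519, edgeR) and 15.9 ± 2.60 CPM after cotreatment (adjusted P = 3.00e-05, edgeR). *Tagln*, another contractile gene, fell by 0.55 and 0.76 on the log2 scale in the same comparisons (adjusted P = 0.0365 and 0.00196, edgeR), the first of which was lost on leaving out any 1 of 6 of the 20 tumors. *Srf* itself fell by 0.69 after cotreatment (adjusted P = 0.000276, edgeR) and by 0.44 against cisplatin (adjusted P = 0.0424, edgeR), and *Ccn1*, an early target of YAP and SRF, fell by 0.82 after cotreatment (adjusted P = 0.00802, edgeR; 0.76 and not called with later codes only). *Amotl2* fell by 0.41 against cisplatin (adjusted P = 0.0382, edgeR). The calls of *Srf* and *Amotl2* against cisplatin were lost on leaving out any 1 of 14 and any 1 of 9 of the 20 tumors, and with the replicate block (adjusted P = 0.0583 and 0.0698, edgeR). With earlier codes only the values were -0.13 for *Srf* and -0.21 for *Amotl2*. *Acta2* and *Tagln* are also genes of the vessel wall, and the sum of the 8 endothelial markers averaged 179 CPM in vehicle, 88.9 CPM after cisplatin and 101 CPM after cotreatment. The part of vessels in these values was not tested.

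**Figure D5:**
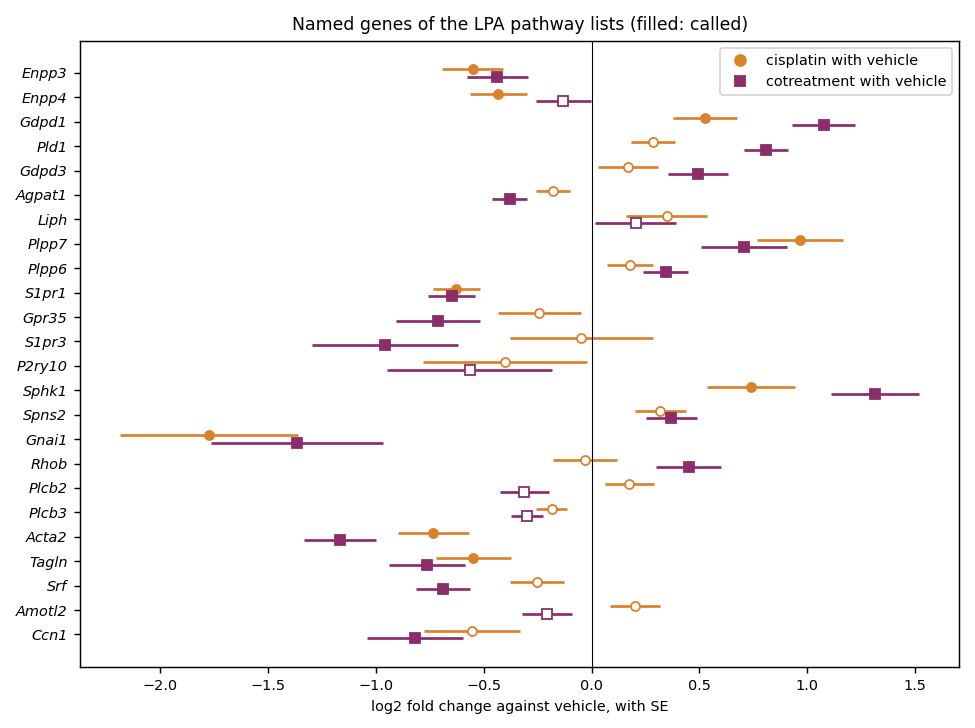
Log2 fold changes against vehicle with their SE for the named genes of the 7 pathway lists after cisplatin (circles) and cotreatment (squares), with filled symbols for called values. *Gdpd1*, *Pld1* and *Sphk1* lie to the right, with *Sphk1* at 1.32 after cotreatment, and *Acta2*, *Tagln*, *Srf* and *Ccn1* lie to the left.

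Sums of markers of other host cells are given beside these values. The sum of 5 red blood cell genes was 25.6 to 117 CPM in tumors given no cisplatin and at most 0.110 CPM in tumors given it, and the neutrophil sum of 6 genes was 44.7 to 120.1 CPM in vehicle, 48.5 to 147 CPM in KW6002, 13.8 to 67.3 CPM in cisplatin and 13.6 to 32.4 CPM in cotreated tumors. The sum of 8 adipocyte genes, which includes no member, ranged from 21.6 to 344 CPM in vehicle, 19.3 to 168 in KW6002, 13.3 to 35.7 in cisplatin and 28.4 to 85.1 CPM in cotreated tumors, and all 4 groups overlapped. Adipocytes are a known source of autotaxin. The sum was highest in vehicle replicate 2, at 344 CPM, where *Enpp2* was 129 CPM, and the part of these cells in the values of *Enpp2* was not tested. The sum of 6 skeletal muscle genes was 1025 CPM in cotreatment replicate 4, the tumor with the most *Enpp2* (171 CPM), and 3.58 to 244 CPM in the other 19. Without that tumor the log2 fold change of *Enpp2* between cotreatment and cisplatin was 0.59.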

How the data were processed

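RNA was measured in 20 LLC1 tumors, 5 per group, grouped by the sample titles, whose form differs slightly for vehicle replicate 1. The authors prepared stranded poly(A) libraries, aligned single-end reads with STAR to mm10 (GRCm38) and counted those with a unique alignment per Ensembl gene, using HTSeq-count 0.6.1p1 in union mode, and the deposited values are raw counts. The labels do not say that the tumors came from separate cages or days, so P values measure the spread between these tumors. No column of the table was left out, and 0 rows lacked a gene.

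From these counts, edgeR 4.0.16 in R 4.3.3 was run with filterByExpr, which kept 16665 genes with 99.9% of counts, TMM scaling, and a robust quasi-likelihood fit of 4 group means to all 20 tumors. Tests were two-sided and adjusted by Benjamini-Hochberg over all genes tested. CPM used TMM-scaled library sizes, log2 CPM a prior count of 2, and exon lengths and positions GENCODE M21 on GRCm38. On data simulated for cotreatment with cisplatin (16665 genes), 55 of 100 genes changed by 0.5 on the log2 scale and 91 of 100 changed by 1 were recovered, with 6 false calls. Promoter sequences are from RefSeq, on GRCm38.p6.

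Named pathway genes were, for each list and comparison, up to 3 raised and 3 lowered genes that were called, taken in order of adjusted P. Marker lists are given by their summed level. The members, gene lists and alternatives were chosen with earlier results of these data known. Alternatives were DESeq2 1.42.0, limma 3.58.1 voom with sample weights, other scalings, filters and fold limits, fitting only the groups compared, run terms, a replicate block and leaving out each tumor. Deviations of same-numbered tumors correlated between -0.39 and 0.39 over 30 pairs, so the numbers were not taken to pair tumors.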

Additional observations from a re-analysis of the deposited data

Results flagged for a closer look

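*Plpp1* in cisplatin replicate 4 was 36.3 CPM and stood apart from the other 4 cisplatin tumors, at 29.3 to 31.2 CPM. It was the only such gap among the 32 sets of 5 tumors (8 members in 4 groups) examined, and chance gives about 1 in 20. The same tumor had the highest *Col1a1* of the 20 tumors, at 737 CPM, a gene singled out after its values were seen. Of the same marker list *Col1a2* (1002 CPM), *Col3a1* (10368 CPM) and the summed level (14366 CPM) were also highest there. *Lum* and *Pdgfra* were not high, at 523 CPM (449 to 1053 CPM over all tumors) and 205 CPM (182 to 306 CPM). The part of fibroblasts was not tested. Without this tumor the log2 fold change of *Plpp1* for cisplatin with vehicle was 0.18, and that for cotreatment with cisplatin 0.24 (adjusted P = 0.0744, edgeR).

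The effect of KW6002 on *Plcb2*, a phospholipase C gene of the pathway lists, differed between tumors with and without cisplatin by -0.88 on the log2 scale (adjusted P = 0.0391, edgeR). Over the alternatives the value was -0.97 to -0.79, and the call was lost on leaving out any 1 of 14 of the 20 tumors (adjusted P up to 0.109, edgeR), with the replicate block (adjusted P = 0.0715), with later codes only (0.533) and in the test against the fold limit (0.356). Mean CPM was 7.06 ± 1.03 with vehicle, 9.24 ± 1.15 with KW6002, 7.96 ± 1.04 with cisplatin and 5.68 ± 0.388 with cotreatment (SD, n = 5). *Plcb2* is expressed in leukocytes. The neutrophil sum averaged 74.7, 86.8, 31.6 and 19.4 CPM in these groups in the same order, and the macrophage sum of 8 genes 1261, 1287, 1632 and 1379 CPM, with overlapping ranges. The sum of T and natural killer cell markers averaged 4.82, 9.33, 3.50 and 2.36 CPM, and the B cell sum 0.866, 9.47, 0.896 and 0.952 CPM. Both were highest in KW6002 replicate 1, at 24.8 and 44.1 CPM, 1 of the 14 tumors whose omission lost the call. The part of these cells was not tested.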

How the results depend on the processing

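Of 1187 values of the 6 members tested under the alternatives, 1158 kept their side of the thresholds or moved by less than the spread between tumors, 17 lost a call, 8 gained one, 4 moved further and 0 changed sign after a call. Values not called in the main fit could not lose a call. The call of *Lpar1* against cisplatin was lost in 7 of 34 alternatives. Against vehicle, that of *Lpar4* was lost in 5 of 32 and that of *Lpar1* in 2 of 33, and each other call was lost in 1. Of the 6 members tested, calls for cisplatin with vehicle went from 0 to 1 with later codes only and with voom weights. For cotreatment with vehicle they went from 3 to 0 in a test against the fold limit and to 1 with separate code run terms, where *Lpar1* was at adjusted P = 0.0645. For cotreatment with cisplatin they went from 1 to 0 in the test against the fold limit, with only the groups compared (adjusted P = 0.0802 for *Lpar1*) and with later codes only. For cotreatment with KW6002 they went from 2 to 0 in the test against the fold limit. *Plpp1* was called after cotreatment against vehicle and KW6002 under every alternative except that test, in which adjusted P was 0.242 and 0.0883.

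Of the 71 pathway genes tested, calls for cisplatin with vehicle went from 9 to 14 with no fold limit and to 3 in the test against the fold limit. For cotreatment with vehicle they went from 18 to 30, 8 and, with later codes only, 10. For cotreatment with cisplatin they went from 5 to 9 in DESeq2, 3 with no filter on low counts, 0 in the test against the fold limit, 1 with only the groups compared, 3 with the code run as a term, 3 with separate terms, 0 with later codes only and 3 with earlier codes only, the last added after seeing the data. For cotreatment with KW6002 they went from 16 to 9 in the test against the fold limit and to 7 with later codes only. For the interaction they went from 1 to 3 in DESeq2, 2 with voom weights, and 0 in the test against the fold limit and with later codes only.

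Leaving out each tumor in turn gave 0 to 1 member calls for cisplatin with vehicle, 2 to 3 for cotreatment with vehicle, 0 to 1 for cotreatment with cisplatin and 2 to 3 for cotreatment with KW6002. Pathway calls ranged from 7 to 11, 14 to 19, 1 to 9 and 10 to 17 in the same order, and from 0 to 2 for the interaction, where 14 of 20 gave 0. The lowest count for cotreatment with cisplatin came without cotreatment replicate 2 and the highest without cotreatment replicate 4.

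With the replicate number as a block, member calls for cisplatin with vehicle went from 0 to 1 (*Lpar4*, log2 fold change -1.06, adjusted P = 0.0465, edgeR) and pathway calls for the interaction from 1 to 0, and counts stayed within 1.5 times elsewhere. The numbers are not known to pair tumors, and 3 of 20 tumors correlated best with a tumor of their own number. Requiring 10 counts in every tumor left out *Lpar4*, and depth limits what can be said of *Lpar3* and *Lpar4*.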
